A study of Homo sapiens with 4 samples.

Results

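RNA crosslinked to tagged NKRF by ultraviolet light was compared with RNA recovered with the tag alone. The comparison holds 2 of the 4 libraries of the series, 1 per group, chosen by their labels: the library of cells expressing Flag-His-tagged NKRF and that of cells expressing only the Flag-His tag, both crosslinked at 254 nm. The host of both was HEK293, established from human embryonic kidney, in its Flp-In T-Rex version, which has a single site into which an inducible construct can be placed. Both groups carried the tag and received tetracycline for 24 h, so they differ in the NKRF part of the expressed protein. The labels do not say how much of either protein was made or whether the cells kept their own NKRF. The other libraries of the series, from cells given 100 µM 4-thiouridine for 6 h and irradiated at 365 nm (PAR), serve below only as another readout. With 1 library per group no test across samples was possible. All differences below are between these libraries, and the spread between cultures is unknown.

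NKRF is a G-patch protein, a class of proteins that bind RNA helicases and switch on their activity. It is known to act in the nucleolus with the helicase DHX15 and the 5′-3′ exonuclease XRN2, which trims precursors of the ribosomal RNAs (rRNAs) and degrades the spacer pieces cut out of them. The 47S pre-rRNA is a single transcript in which 18S, 5.8S and 28S rRNA are separated and flanked by spacers: the 5′ external transcribed spacer (5′ ETS), the internal spacers ITS1 and ITS2, and the 3′ ETS. Crosslinking and analysis of cDNA (CRAC) joins a protein to the RNA it touches, trims the RNA, and sequences what remains attached. Coverage at a nucleotide is the number of reads that span it. A read starts where the RNA was cut, and reverse transcriptase can skip or misread the crosslinked base, so the edges of coverage, the deletions and the substitutions carry information at single nucleotides.

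The deposited profile covers 13780 nucleotides (nt) of the 47S pre-rRNA in 7 segments, and positions below are counted from 1 at its start. Coverage is given in normalised hits, which are hits per 1000000 reads of the library. A read was worth 0.920 normalised hits in the NKRF library and 1.19 in the tag-only library, which corresponds to about 1087548 and 841751 reads. At least 238662 and 82816 of these lay on the 47S pre-rRNA. The profile had coverage at 96.6% of its nucleotides with NKRF and at 81.1% with the tag alone. Reads amplified by PCR and carrying no molecular identifier cannot be counted as independent molecules. Every interval below therefore (95%, exact Clopper-Pearson unless another is named) covers counting error only.

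The results turn on 3 kinds of sequence, all read from the nucleotide column of the deposited profile. The first kind shows the edges that both libraries had. Around the starts of 18S, 5.8S and 28S and the end of 18S, capitals mark the mature rRNA. In the 5′ ETS they mark the first nucleotides after the largest rises. Inside 18S they mark the block of 41 nt from the largest internal rise to the last nucleotide before the largest fall.
Start of 18S, positions 3642 to 3681: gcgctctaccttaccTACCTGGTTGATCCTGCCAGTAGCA
End of 18S, positions 5501 to 5540: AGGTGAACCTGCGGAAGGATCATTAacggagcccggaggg
Start of 5.8S, positions 6606 to 6645: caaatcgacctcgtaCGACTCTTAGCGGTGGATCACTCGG
Start of 28S, positions 7918 to 7957: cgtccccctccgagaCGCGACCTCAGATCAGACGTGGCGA
5′ ETS, positions 401 to 455: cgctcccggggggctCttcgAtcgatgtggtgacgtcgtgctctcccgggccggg
18S, positions 4471 to 4531: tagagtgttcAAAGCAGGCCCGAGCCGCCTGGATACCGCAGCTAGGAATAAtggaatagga

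The second kind shows stretches whose share of coverage was much higher with NKRF than with the tag alone. Of 35 such stretches, these are the 8 with the most summed NKRF coverage and the longest of ITS1, not those with the highest ratio. Capitals mark nucleotides whose NKRF coverage was at least 90% of the highest in the stretch. For the 4 longest of them, only 100 nt around the highest point are shown.
28S, positions 10061 to 10129: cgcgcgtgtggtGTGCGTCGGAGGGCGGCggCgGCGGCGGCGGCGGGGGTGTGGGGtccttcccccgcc
28S, positions 10991 to 11022: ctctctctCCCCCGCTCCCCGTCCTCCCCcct
28S, positions 8691 to 8791: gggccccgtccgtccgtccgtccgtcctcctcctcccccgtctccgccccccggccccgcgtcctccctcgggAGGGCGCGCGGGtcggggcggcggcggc
28S, positions 11273 to 11312: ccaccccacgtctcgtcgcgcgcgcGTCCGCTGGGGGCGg
ITS2, positions 7226 to 7325: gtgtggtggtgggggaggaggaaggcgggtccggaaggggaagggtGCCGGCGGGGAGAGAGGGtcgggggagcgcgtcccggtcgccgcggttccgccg
ITS2, positions 6899 to 6981: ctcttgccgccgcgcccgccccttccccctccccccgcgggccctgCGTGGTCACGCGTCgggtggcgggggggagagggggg
ITS1, positions 5818 to 5917: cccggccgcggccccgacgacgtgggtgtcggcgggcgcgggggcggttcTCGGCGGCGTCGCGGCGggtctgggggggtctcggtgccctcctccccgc
5′ ETS, positions 1799 to 1898: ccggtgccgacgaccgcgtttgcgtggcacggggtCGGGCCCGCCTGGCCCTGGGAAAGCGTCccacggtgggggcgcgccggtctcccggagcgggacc
5′ ETS, positions 2883 to 2982: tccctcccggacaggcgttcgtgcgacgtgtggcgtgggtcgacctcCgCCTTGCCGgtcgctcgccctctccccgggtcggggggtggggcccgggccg

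The third kind shows the spacer nucleotides at which reads of the NKRF library most often lacked a base. Capitals mark those nucleotides. Where a capital lies in a run of the same base, the deletion could belong to any base of that run.
5′ ETS, positions 708 to 732: gcccccctccgcGgcggtgggggtg
5′ ETS, positions 1745 to 1769: tgaccccctccgTccgcgagtcggc
5′ ETS, positions 3141 to 3165: cgaccggaccggCtgcgcgggcgct
ITS1, positions 5878 to 5909: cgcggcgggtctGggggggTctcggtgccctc
ITS2, positions 7308 to 7332: gtcgccgcggttCcgccgcccgccc
ITS2, positions 7349 to 7380: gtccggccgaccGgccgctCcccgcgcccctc

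Among the 9 RNA classes, rRNA, tRNA and small nucleolar RNA (snoRNA) took a larger share of class hits with NKRF, and the other 6 took a smaller one. rRNA made up 35.7% of class hits with NKRF (35.6% to 35.8%) and 13.2% with the tag alone (13.2% to 13.3%), a log2 ratio of 1.43. snoRNAs, most of which guide chemical modification of pre-rRNA, had the largest ratio, with 0.776% (0.759% to 0.792%) against 0.218% (0.208% to 0.228%) and a log2 ratio of 1.83. tRNA, the adaptor of translation, had 5.36% against 2.31%, a log2 ratio of 1.22. Protein-coding RNA was the largest of the classes whose share was lower with NKRF, at 32.6% against 46.3%. Small nuclear RNA (snRNA), the splicing RNAs, differed least, at 2.08% against 2.43%. Shares sum to a fixed total, so a larger rRNA share lowers the others. With rRNA left out of the total the log2 ratio of snRNA turned from -0.22 to 0.21, while those of snoRNA and tRNA were 2.26 and 1.65.

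**Figure D1:**
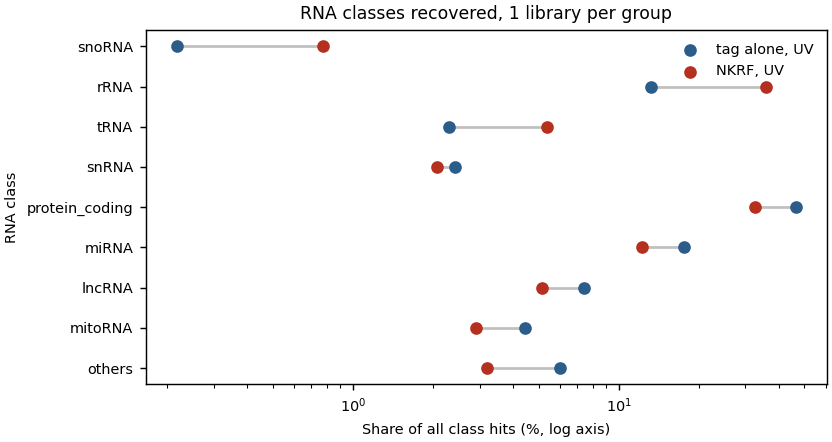
Share of all class hits (percent, log axis) of each of the 9 RNA classes in the NKRF library (red) and the tag-only library (blue), 1 library each, ordered by the ratio of the shares. Red lies to the right of blue for snoRNA, rRNA and tRNA, and to the left for the other 6 classes.

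Most single-nucleotide steps in coverage lay at the same places in both libraries, and the largest of them lay in 18S. A sharp step is a nucleotide whose coverage differed from that of the nucleotide before by at least 100 normalised hits and by at least 25% of the higher of both. The NKRF library had 67 sharp rises (0.486% of 13780 nt) and 48 sharp falls (0.348%). The tag-only library had 51 rises (0.37%) and 41 falls (0.298%). The first nucleotide of 18S, position 3657, held the largest rise with NKRF, from 167 to 9509 normalised hits, and it went from 56 to 5643 with the tag alone.

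Inside 18S, coverage rose at position 4481 from 6979 to 15715 with NKRF and from 3684 to 11349 with the tag alone. It fell at position 4522 from 10941 to 1461 with NKRF and from 8568 to 1231 with the tag alone. These edges enclose the block shown above and the highest point of each profile, 21059 normalised hits at position 4499 with NKRF and 15755 at 4497 with the tag alone. Position 4019, also in 18S, rose from 1182 to 3894 with NKRF and from 1100 to 5286 with the tag alone, so this step was larger in the tag-only library. The remaining largest falls of both libraries also lay in 18S. The falls at 3700, 3749 and 4057 were among the 5 largest in each library.

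The 5′ ETS held a block of its own. Coverage rose at position 416 from 181 to 3056 normalised hits with NKRF and from 132 to 1532 with the tag alone. At position 421 it rose further, from 4758 to 7285 and from 2214 to 3075. This region holds the earliest known cleavage site of the human 5′ ETS, called A′ or 01. The peak above these edges reached 7970 normalised hits at position 438 with NKRF and 3286 at 435 with the tag alone, and at 457 both profiles fell sharply. As a share of the summed 47S coverage of each library, the NKRF summit was 1.01 times the tag-only profile. The block was thus present at about the same share in the tag-only library.

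Of the NKRF rises, 43 of 67 (64.2%) lay within 2 nt of a tag-only rise, and of the tag-only rises 41 of 51 (80.4%) lay within 2 nt of an NKRF rise. For falls the counts were 26 of 48 (54.2%) and 24 of 41 (58.5%). Sharing differed by segment. In 18S 25 of 28 NKRF rises and 16 of 20 NKRF falls were shared, and in 28S 10 of 28 and 6 of 18. For comparison, 1.77% of all nucleotides lay within 2 nt of a tag-only rise and 1.32% within 2 nt of a tag-only fall. The same shares around NKRF steps were 2.24% and 1.39%. Most steps that were sharp in 1 library missed the size limits in the other but went the same way there. Coverage changed in the same direction at the same nucleotide in the tag-only library at 66 of 67 NKRF rises and 47 of 48 NKRF falls. It did so in the NKRF library at all 51 rises and all 41 falls of the tag-only library. The exceptions were the rise at 1611 in the 5′ ETS, from 31 to 202 with NKRF where the tag-only profile went from 18 to 11, and the fall at 6971 in ITS2, from 456 to 308 where the tag-only profile stayed at 1.

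**Figure D2:**
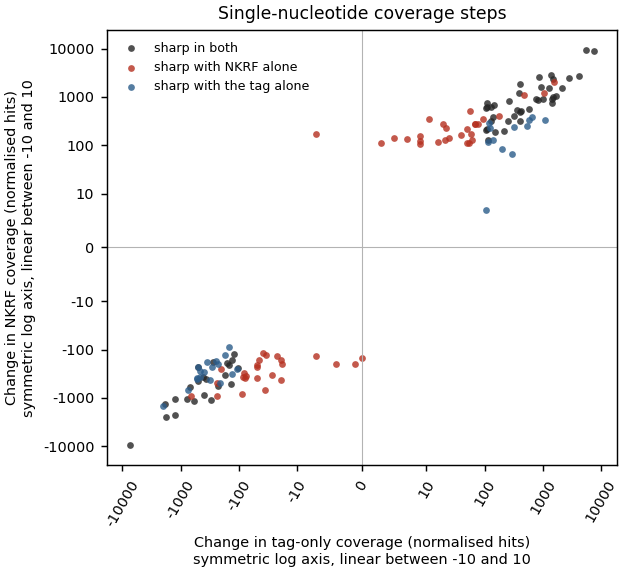
Change in coverage from the nucleotide before at every sharp step of either library, tag-only library on the x axis and NKRF library on the y axis (normalised hits, symmetric log axes, linear between -10 and 10). Points are black where both libraries had a sharp step at the same nucleotide, red where only the NKRF library had one there and blue where only the tag-only library did. Nearly all points lie in the lower left and upper right parts of the plot, where both profiles step the same way.

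The nucleotides at the rises were alike in base. Of the 67 NKRF rises, 47 (70.1%) began at an A that followed a pyrimidine (C or T), as did 43 of the 51 tag-only rises (84.3%). Such places make up 3.95% of the 47S pre-rRNA. Among nucleotides with at least 400 normalised hits, where a sharp rise could readily be seen, 12.1% of the pyrimidine-then-A places and 0.306% of all other places held a sharp NKRF rise. In the tag-only library these shares were 16.2% and 0.385%. The falls followed a pyrimidine in 70.8% of cases with NKRF and 65.9% with the tag alone, against 51.2% pyrimidines overall. The labels say that the bound RNA was trimmed but name no enzyme, and its part in these edges was not tested.

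The mature rRNAs and the spacers differed in how often such places occur. Pyrimidine-then-A places numbered 9.10 per 100 nt in 18S, 7.64 in 5.8S and 5.40 in 28S, but 1.29 in the 5′ ETS, 1.46 in ITS1 and 0.519 in ITS2. Of the 5 sharp NKRF rises in spacer nucleotides with at least 400 normalised hits, none began at such a place, and 4 such places had that coverage.

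At the starts of 18S and 28S the libraries shared the position of the edge, and relatively more coverage lay on the spacer side with NKRF. At the ends of 5.8S and 28S the spacer side was also relatively higher with NKRF, but the intervals overlapped. Overlap alone does not show equal shares. At the start of 5.8S the shares were alike, and at the end of 18S the order was the other way. At the last nucleotide of the 5′ ETS, coverage was 167 normalised hits with NKRF, 1.76% of the value at the first nucleotide of 18S (1.52% to 2.03%). With the tag alone it was 56, or 0.992% (0.728% to 1.31%). At the start of 28S the last nucleotide of ITS2 had 841 normalised hits with NKRF, 41.3% of the first 28S nucleotide (39.3% to 43.4%), and 115 with the tag alone, 22.5% (18.7% to 26.8%). The intervals at both borders did not overlap, so the spacer side was relatively higher with NKRF there. With means of 5 nt on either side, the shares were 1.02% against 0.573% at the start of 18S and 15.4% against 8.90% at the start of 28S. The rise into 28S was spread over positions 7931 to 7933 in both libraries.

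At the end of 5.8S the first nucleotide of ITS2 had 97 normalised hits with NKRF, 42.4% of the last 5.8S nucleotide (36.0% to 48.6%). The tag-only library had 8 there, 19.0% (8.44% to 36.9%), so these intervals overlapped narrowly, which does not show equal shares. Coverage had already fallen at the last 5.8S nucleotide, from 1045 to 229 with NKRF and from 129 to 42 with the tag alone. With means of 5 nt on either side the shares were 7.44% and 5.15%. At the start of 5.8S the spacer side had 781 normalised hits with NKRF (55.5%, 52.9% to 58.0%) and 169 with the tag alone (56.3%, 49.8% to 62.3%), which could not be told apart at this depth. Both profiles rose upstream of the annotated start, at position 6615 from 51 to 170 with NKRF and from 15 to 31 with the tag alone, and at 6616 to 445 and 100. A known longer form of 5.8S begins a few nucleotides upstream of the shorter one.

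At the end of 18S neither profile dropped at the annotated border. The first ITS1 nucleotide kept 90.05% of the coverage of the last 18S nucleotide with NKRF (88.4% to 91.6%) and 95.1% with the tag alone (93.6% to 96.3%). The largest fall in ITS1 came at its position 8, from 610 to 239 normalised hits with NKRF and from 505 to 86 with the tag alone. The spacer side was thus relatively lower with NKRF at the border itself, and past the fall NKRF coverage was the higher. The reference behind the annotated border is not given in the sources used here. At the end of 28S, 5 reads with NKRF and 0 with the tag alone covered the first 3′ ETS nucleotide, and with 11 tag-only reads on the last 28S nucleotide the share could be up to 28.5%.

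**Figure D3:**
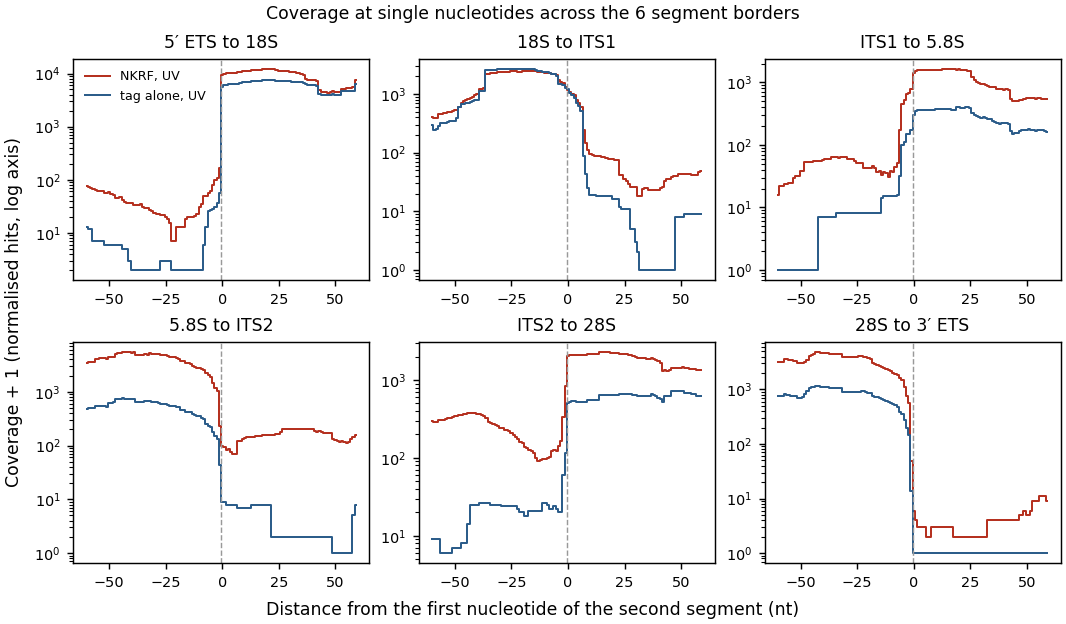
Coverage plus 1 (normalised hits, log axis) within 60 nt of the 6 segment borders, with the distance from the first nucleotide of the second segment on the x axis, for the NKRF library (red) and the tag-only library (blue). At the starts of 18S, 5.8S and 28S both profiles rise at the same distances. The spacer side is higher with NKRF in most of each panel, and the fall past the end of 18S comes several nucleotides into ITS1 in both.

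Most NKRF peaks in 18S and both in 5.8S had a tag-only counterpart, 34.3% of those in 28S did, and those in the spacers had almost none. In the spacers tag-only coverage was mostly too low for a peak to be called. A peak is a local maximum of at least 200 normalised hits whose prominence is at least 50% of its height, and its width is measured at 50% of its height. The NKRF library had 78 peaks, 22 of them in spacers, and the tag-only library had 36, 1 of them in a spacer. Of the NKRF peaks 30 (38.5%) had a tag-only summit within 10 nt, and of the tag-only peaks 30 (83.3%) had an NKRF summit within 10 nt. For comparison, 5.49% of all nucleotides lay within 10 nt of a tag-only summit and 11.9% within 10 nt of an NKRF summit.

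In 18S, 15 of 19 NKRF peaks (78.9%) were shared, and in 28S 12 of 35 (34.3%). In the spacers 1 of 22 was shared, the 5′ ETS block at position 438. Among the 30 shared peaks the summits lay at the same nucleotide in 8 and within 2 nt in 15. Their widths were alike, with medians of 43.0 nt for NKRF and 43.5 nt for the tag alone, and NKRF was the wider in 11, the narrower in 16 and equal in 3.

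Peaks in 18S had a sharp edge more often than those in the spacers or in 28S. Of the 19 NKRF peaks in 18S, 12 had a sharp rise at their left edge and 5 had sharp edges on both sides. Of the 22 in spacers, 19 had a sharp step at neither edge. In 28S neither edge was sharp in 24 of 35. A sharp step needs at least 100 normalised hits, which is a larger part of a low peak. The lowest spacer peak reached 205 normalised hits and the lowest 18S peak 1092. The part of peak height in the difference was not tested. Spacer peaks were otherwise no broader, with a median width of 42.5 nt against 45.5 nt over all NKRF peaks.

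The highest ITS2 peak reached 4387 normalised hits at position 7276 and was 33 nt wide, with 7 nt to the left of the summit and 25 nt to the right. The tag-only library reached 45 within it. The next ITS2 peaks, at 7334 and 6951, reached 2804 and 2759, with at most 29 and 42 in the tag-only library. The highest ITS1 peak reached 904 at position 5876, with at most 13 in the tag-only library. In 28S the highest NKRF peaks without a tag-only summit within 10 nt were at 11302 (6536 normalised hits, tag-only at most 348), 8771 (4410, at most 132) and 10738 (2568, at most 312). In all of these the tag-only library had coverage far below that of NKRF rather than none. At 11302 and 10738 its values of 348 and 312 were above its own 28S mean of 128 normalised hits. The NKRF peak at 11302 also overlapped a tag-only peak with its summit at 11344.

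A peak at 3678, just inside 18S, shows the limits of matching summits. It reached 12098 normalised hits with NKRF and had no tag-only summit within 10 nt, but the tag-only profile reached 7591 within the same 43 nt. The same holds for 5357 in 18S, where NKRF reached 2358 and the tag alone 2240. These peaks differed in shape and not in presence.

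Reads on the NKRF profile may have been somewhat longer. The summed coverage divided by the summed rises gives an upper bound on mean read length, since starts and ends at 1 nucleotide cancel. It was 53.8 nt with NKRF and 49.9 nt with the tag alone over the 47S pre-rRNA. In 18S it was 52.8 and 51.0 nt, and in 28S 57.7 and 48.6 nt. Low coverage also lowers this bound, and the tag-only values in the spacers (35.1 nt against 45.9 nt) rest on about 3892 rising reads against 35864.

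The share of coverage was much higher with NKRF than with the tag alone in 35 stretches of 20 to 292 nt. A stretch is an unbroken run of at least 20 nt with at least 100 normalised hits with NKRF and a share of 47S coverage at least 8 times that of the tag alone, with a pseudocount of 1 normalised hit. Together they covered 2490 nt (18.1% of the 47S pre-rRNA), and held 21.6% of NKRF coverage and 1.48% of tag-only coverage. ITS2 held 9 stretches, which made up 51.2% of its length and 84.8% of its NKRF coverage. ITS1 held 4 (25.8% of its length), the 5′ ETS 12 (29.5%) and 28S 10 (10.7%). No stretch lay in 18S, 5.8S or the 3′ ETS. Fewer than 3 tag-only reads lay in 10 of the 35 stretches, 7 of them in the 5′ ETS, and 2 stretches had none. The lower bound of the fold was above 8 in 30 stretches. With a pseudocount of 10 normalised hits, 21 stretches were found. Since the ratio chose these stretches, the folds below describe them and test nothing.

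ITS2 separates 5.8S from 28S, and its removal is a late step of large subunit maturation. Its longest stretch, 7105 to 7391, had a mean of 1391 normalised hits with NKRF against 18.2 for the tag alone. Its share of 47S coverage was 31.8 times that of the tag alone (26.9 to 37.8, interval from the binomial split of reads). The stretch nearer to 5.8S, 6899 to 6981, had means of 1193 and 17.8, a share 27.9 times as high (20.4 to 39.4). The longer of these holds several rounded peaks and ends gradually, from 108 normalised hits at its last nucleotide to 94 at the next.

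In ITS1, the spacer between 18S and 5.8S, positions 5773 to 5917 averaged 493 normalised hits under NKRF against 5.48 for the tag alone, a share 37.5 times as high (25.5 to 57.5). In the 5′ ETS, positions 1696 to 1987 had means of 461 and 4.53, a share 42.3 times as high (29.9 to 62.1). Positions 2705 to 2986 had a mean of 337 with NKRF and 0.475 with the tag alone, where about 4.21 reads lay in all and 198 of the 282 nucleotides had none. The fold of 295 (118 to 1039) there rests on those few tag-only reads. The spacer folds depend on the scale. With a pseudocount of 10 normalised hits they were 20.7 and 18.02 for the ITS2 stretches, 13.5 in ITS1, and 13.5 and 13.8 in the 5′ ETS. As a share of all reads instead of 47S coverage they were 76.4, 67.1, 90.1, 101.8 and 709.4 in the same order.

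The 28S stretches carried the most coverage. The 4 named here lie in expansion segments, GC-rich insertions that eukaryotic 28S rRNA carries on the surface of the large subunit. Positions 8691 to 8791 fall in expansion segment ES7L, 10061 to 10129 in ES15L, and 10991 to 11022 and 11273 to 11312 in ES27L. The stretch at 10061 had a mean of 7581 normalised hits with NKRF against 332 for the tag alone, a share 9.50 times as high (8.64 to 10.5). The stretch at 10991 had 11098 and 478, a share 9.65 times as high (8.83 to 10.6). The one at 8691 had 2720 and 85.9 (13.2 times, 11.4 to 15.3), and the one at 11273 had 4147 and 178 (9.68 times, 8.57 to 10.97). As a share of all reads the 4 folds were between 22.8 and 31.6. These 4 had tag-only means of 85.9 normalised hits or more, above those of the named spacer stretches, and their folds lay near the limit of 8 that defines a stretch.

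Likeness of the profiles was measured over whole segments and not within stretches. Across nucleotides of ITS2 the Spearman correlation of coverage between the libraries was 0.65, in 28S 0.73, in 18S 0.95 and in the 5′ ETS 0.08. These describe 1155, 5070, 1869 and 3656 neighbouring nucleotides that share reads and are not independent.

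**Figure D4:**
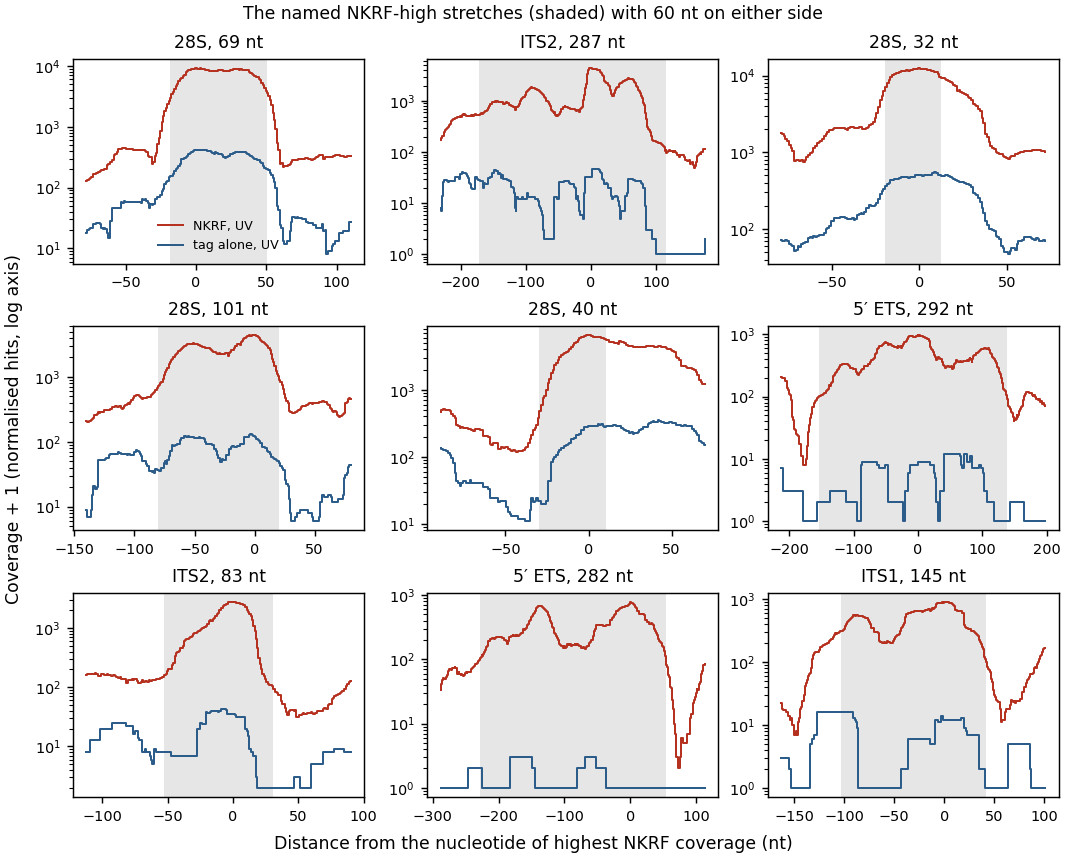
Coverage plus 1 (normalised hits, log axis) of the NKRF library (red) and the tag-only library (blue) over the 9 named stretches (shaded) and 60 nt on either side, with the distance from the nucleotide of highest NKRF coverage on the x axis. NKRF coverage lies above tag-only coverage throughout the shaded parts. The shaded parts hold 0 sharp NKRF rises, and 3 sharp falls near the right ends of the ITS1 stretch and the shorter ITS2 stretch.

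The stretches differed more in GC content from the rest of 28S than from the rest of the spacers. In 28S their GC content was 85.6% against 67.5% outside them. In ITS2 it was 83.1% against 83.2%, in the 5′ ETS 80.3% against 78.8%, and in ITS1 82.6% against 78.6%. Adenine made up 4.26% of the stretches, and pyrimidine-then-A places occurred 0.884 times per 100 nt. The stretches held 0 sharp NKRF rises and 3 sharp falls. Some sharp NKRF steps lay just outside them. The rise at 1611 came right before the stretch 1612 to 1651. The rises at 10052 and 10055 and the falls from 10135 to 10139 flanked the stretch 10061 to 10129.

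The PAR libraries, made with another kind of crosslink, gave coverage at the same stretches. NKRF coverage exceeded tag-only coverage in the mean of all 35 stretches. For comparison, it did so in 289 of 336 windows of 41 nt, the median stretch length, along the 47S pre-rRNA (86.0%). Among the 151 windows outside the stretches with a mean of at least 100 normalised hits with NKRF under UV, it did so in 122 (80.8%). At 10991 to 11022 the PAR means were 5980 normalised hits with NKRF against 6.75 for the tag alone, at 10061 to 10129 they were 3847 and 10.0, and at 8691 to 8791 they were 2679 and 0.624. In the 5′ ETS the PAR mean at 2705 to 2986 was 1521 with NKRF, above its mean of 337 under UV. In ITS2 the order was the other way, with 519.5 at 7105 to 7391 under PAR and 1391 under UV. The tag-only PAR library had no coverage at all in 12 of the stretches. The value of 1 read was not estimated for the PAR libraries. At the nucleotides named below for deletions or substitutions, tag-only PAR coverage was either 0 or at least 9 normalised hits. Low tag-only PAR means and zeros therefore rest on few reads or none. The share of zeros outside the stretches was not counted.

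Deletion shares at matched nucleotides differed little between the libraries. A nucleotide was matched when both libraries had at least 50 reads on it. Of 5102 such nucleotides, 2970 lay in 28S, 1868 in 18S, 156 in 5.8S, 53 in the 5′ ETS, 42 in ITS2 and 13 in ITS1. The NKRF library alone reached 50 reads at 11112 nt, so tag-only depth set this limit in the spacers. The mean deletion share was 0.159% with NKRF and 0.171% with the tag alone. A share was called different when it differed by at least 2 percentage points and the intervals did not overlap. With NKRF 5 nucleotides were higher (0.098% of those matched) and 29 lower (0.568%).

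The largest higher call was G at 28S position 1981 (9913 of the transcript, in cggtggccatGgaagtcggaa). There 53 of 294 reads carried a deletion with NKRF (18.03%, 13.8% to 22.9%) and 3 of 62 with the tag alone (4.84%, 1.01% to 13.5%). The other 4 were T at 10236 and 11609 in 28S and A at 4250 and 4140 in 18S, where NKRF shares lay between 2.25% and 8.70%. The largest lower call was T at 12487 in 28S (gacaggttagTtttaccctac), with 8.57% of 735 reads with NKRF (6.65% to 10.8%) and 25.6% of 129 with the tag alone (18.3% to 34.01%). G at 4626 in 18S (tgaaattcttGgaccggcgca) had 6.54% of 3194 reads with NKRF (5.71% to 7.46%) and 19.5% of 2165 with the tag alone (17.8% to 21.2%). More of the calls were lower than higher with NKRF, whereas over all matched nucleotides the deletion share was above that of the tag alone at 1273, below it at 573 and equal at 3256. At such low shares a library with fewer reads more often records 0 deletions, so these counts do not show a higher share with NKRF. In 28S they were 689 above and 199 below. In 18S, where the depths of the libraries were closer, they were 511 and 350.

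In the spacers, where matched depth was mostly lacking, deletion shares with NKRF were ranked among spacer nucleotides only. The highest of them are given here. Whether unmatched nucleotides of the mature rRNAs had shares as high was not tested. C at position 3153 in the 5′ ETS was deleted in 89.0% of 191 NKRF reads (83.7% to 93.1%) and T at 1757 in 82.4% of 239 (77.0% to 87.0%). In ITS2, C at 7320 was deleted in 80.9% of 2393 reads (79.3% to 82.5%), C at 7368 in 64.2% of 246 and G at 7361 in 52.4% of 496. In ITS1, G at 5890 was deleted in 29.8% of 708 reads and T at 5897 in 27.0% of 389. G at 720 in the 5′ ETS was deleted in 21.7% of 83 reads.

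Of these 8 sites 7 lay in the NKRF stretches, which hold 48.0% of the spacer nucleotides with at least 50 NKRF reads. The tag-only library had at most 35 reads at any of them and none at 1757. Yet 7 of the 8 carried at least 1 tag-only deletion, among them 3 of 7 reads at 7320, 3 of 9 at 5890 and 2 of 2 at 7361. The tag-only intervals overlapped those of NKRF at the 7 sites with tag-only reads, so no site met the rule for a call at this depth. Pooled over the 8 sites, 15 of 63 tag-only reads (23.8%, 13.98% to 36.2%) and 3056 of 4745 NKRF reads (64.4%) carried a deletion, but the pooled shares weight the sites differently.

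Under PAR crosslinking the NKRF library covered 7 of these 8 sites, with 770 normalised hits at 7320, 908 at 5890 and 13 at 7361. It had 0 at 7368. The tag-only PAR library was at 0 at all 8, which does not show absence where the lowest values above 0 were 9 normalised hits. The PAR profile gives substitutions but no deletions. At T 1757 substitutions equalled coverage under PAR, 71 of 71 normalised hits, and at the other 7 sites there were 0. Every nucleotide other than T named here for deletions or substitutions had 0 PAR substitutions with NKRF. Among them was G 10973, with 1103 PAR hits and 63.4% of reads substituted under UV. The values of 0 at the C and G sites therefore do not set these sites apart from T 1757.

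The mean substitution share at matched nucleotides was lower with NKRF, and A accounted for most of the lower calls. The mean over the 5102 matched nucleotides was 1.60% with NKRF and 1.998% with the tag alone, although the NKRF share was above the tag-only share at 2632 of them and below it at 2384. With calls made at 5 percentage points and intervals that did not overlap, 18 nucleotides were higher with NKRF (0.353%) and 180 lower (3.53%). Of the 180, 139 were A. At A the mean share was 2.67% with NKRF against 5.11% for the tag alone, and it was lower with NKRF at 751 of 945 nucleotides. The same difference appeared in each mature rRNA, with 2.76% against 5.08% in 18S, 2.63% against 5.19% in 28S and 2.39% against 4.58% in 5.8S.

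The other bases differed far less in their means. At each of them more nucleotides were higher than lower with NKRF: 953 against 546 at C, 939 against 706 at G and 547 against 381 at T. These counts, and those over all matched nucleotides, also depend on depth, as for deletions. At C the means were 1.39% with NKRF and 1.19% with the tag alone, at G 1.06% and 1.14%, and at T 1.80% and 1.71%. Of the A nucleotides called lower, 41.0% lay within 20 nt after a sharp tag-only rise, against 24.0% of all matched A. A call also depends on tag-only depth, for which these sets were not matched, so no conclusion is drawn from these shares. The deposited columns count substitutions without naming the new base. The part of library preparation or sequencing in this difference was not tested, and with 1 library per group it cannot be told apart from an effect of the expressed protein.

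**Figure D5:**
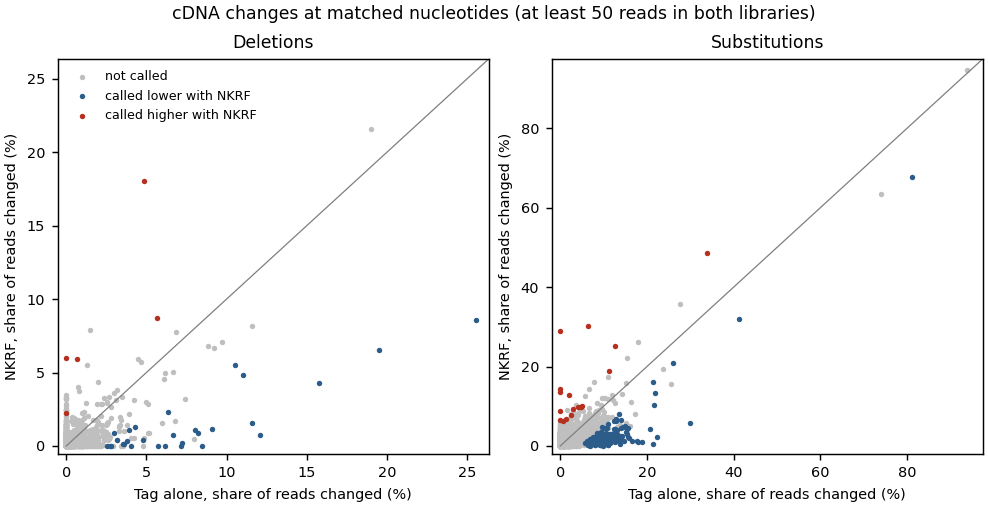
Share of reads with a deletion (left) and with a substitution (right) at the 5102 nucleotides with at least 50 reads in both libraries, tag alone on the x axis and NKRF on the y axis (percent, linear axes that differ between panels, with the line of equal shares). Red marks nucleotides called higher with NKRF, 5 and 18, and blue those called lower, 29 and 180. The blue points of the right panel form a band below the line at tag-only shares of about 5% to 20%.

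Among single sites, A at 4657 in 18S (gagcgaaagcAtttgccaaga) was substituted in 0.999% of 3405 reads with NKRF (0.692% to 1.39%) and 17.995% of 1706 with the tag alone (16.2% to 19.9%). A at 10381 and at 7944 in 28S had 1.24% and 1.16% with NKRF against 17.7% and 16.7%. The largest lower call was A at 9300 in 28S, 5.90% of 305 reads against 30% of 60, where the tag-only interval was wide (18.8% to 43.2%). Not all large lower calls were at A. C at 9413 had 0.587% against 21.3%, and G at 12562 had 2.36% against 22.2%, with 61 and 54 tag-only reads.

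In the other direction, C at 9142 in 28S (gtcgcgccgtCgggcccgggg) was substituted in 537 of 1860 NKRF reads (28.9%, 26.8% to 30.99%) and in 0 of 85 tag-only reads (up to 4.25%). G at 9913, the site of the largest higher deletion call, had 30.3% of 294 reads with NKRF (25.1% to 35.9%) and 6.45% of 62 with the tag alone (1.79% to 15.7%). This nucleotide was thus changed more often with NKRF in both measures. G at 8779, inside the 28S stretch 8691 to 8791, had 13.6% of 3659 reads (12.5% to 14.7%) and 0 of 68 (up to 5.28%). G at 4724 in 18S had 25.1% of 2065 reads and 12.7% of 1747, the most tag-only reads behind any of the higher substitution calls named here.

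Among the spacer nucleotides with the highest NKRF substitution shares, C at 7274 in ITS2 was the only one whose tag-only interval lay below that of NKRF. It lies 2 nt before the summit of the highest ITS2 peak, within the capitals of that stretch, and was substituted in 1581 of 4763 NKRF reads (33.2%, 31.9% to 34.6%) and in 1 of 27 tag-only reads (3.70%, 0.0937% to 19.0%). The other 7, at 6291, 7797, 1749, 5837, 721, 843 and 5887, had NKRF shares of 28.5% to 37.2%. At 721 the share was higher with the tag alone, in 25 of 33 reads (75.8%, 57.7% to 88.9%) against 31.2% of 80 (21.3% to 42.6%). The remaining 6 had at most 13 tag-only reads.

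Some nucleotides were changed often in both libraries; these were picked after their values were seen. G at 12842 in 28S was substituted in 94.6% of 461 NKRF reads and 93.8% of 81 tag-only reads. A at 4250 in 18S was substituted in 67.8% of 692 and 81.1% of 435 reads, and G at 10973 in 28S in 63.4% of 2248 and 73.9% of 111. T at 28S position 4530 (12462 of the transcript), a uridine known to carry a base methylation, had 35.8% of 583 and 27.6% of 76. Changes at these nucleotides were present without tagged NKRF. The reference behind the profile is not given in the sources used here, and whether the changes come from the reference, a modified base or the alignment was not tested.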

How the data were processed

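The members and lists were chosen with earlier results of these data known. Reads were mapped with Bowtie2 2.2.4, per the submitters' processing notes. The sources used here do not give the build, the pre-rRNA reference, filters or treatment of duplicates. The authors' deposited class scores are hits per 1000000 reads, rounded, as their sums show. The deposited rDNA signal is coverage, substitutions and deletions per nucleotide, per the file headers, on the same scale; reads with a deletion count as coverage. In the tag-only PAR file the header is shifted, and coverage was read from the column headed as substitutions.

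From these, the value of 1 read was estimated from which whole numbers occur among rounded values, by a Poisson fit, and reads were obtained by division. The estimate from substitutions and deletions was 1.19 for the tag alone and 0.920 and 0.921 for NKRF. Ratios of shares carry 95% intervals from the binomial split of reads. Python 3.11.15, numpy 2.4.6, scipy 1.17.1 and pandas 2.3.3 were used. The steps, peaks, stretches and calls were tested on simulated data.

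Named were all 9 classes, the 5 largest rises and falls of each library and the largest per spacer, the highest peaks per segment and the 10 highest NKRF peaks without a tag-only summit, the 8 stretches with the most NKRF coverage and the longest per segment, and the 8 largest calls in each direction and 8 highest spacer shares. Thresholds, denominators, scaling, pseudocount and depth limits were varied.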

Additional observations from a re-analysis of the deposited data

How the results depend on the processing

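No paired analysis was possible because the labels carry no replicate numbers and each group is 1 library. Of 91 alternative values for the main results, 49 kept their direction and size, 41 moved and 1 reversed; of 28 for single stretches and borders, 5 kept their size and 23 moved. With rRNA left out of the class total, log2 ratios were -0.076 (protein-coding), -0.47 (others), -0.10 (lncRNA), 0.21 (snRNA, reversed), 2.26 (snoRNA), -0.091 (miRNA), -0.18 (mitochondrial) and 1.65 (tRNA). With the protein-coding class left out they were -1.24 (others), -0.86 (lncRNA), 1.103 (rRNA), -0.55 (snRNA), 1.5 (snoRNA), -0.85 (miRNA), -0.94 (mitochondrial) and 0.89 (tRNA). Both follow from the smaller total.

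Sharp steps numbered 115 (NKRF) and 92 (tag alone), with 60% and 70.7% shared. At 10% of the higher neighbour they were 384 and 190 (43.2% and 86.3% shared), and at 50% they were 32 and 31 (75% of NKRF shared). With NKRF scaled to the tag-only 47S coverage, there were 74 NKRF steps, and 71.6% and 57.6% were shared. Apparent fragment lengths from rises of at least 3 normalised hits were 54.2 and 50.4 nt. There were 23 stretches at a log2 ratio of at least 4 and 21 with a pseudocount of 10. Deletions higher with NKRF were 3 at 200 reads, 9 at 1 percentage point and 1 at 10, and lower ones 11 at 200 reads and 4 at 10 points. The difference in mean deletion share, -0.012 percentage points, became -0.00026 without the 10 most changed nucleotides. Substitutions higher with NKRF were 93 at 1 point and 7 at 10, and lower ones 92 at 200 reads, 386 at 1 point and 37 at 10. The mean difference in substitution share was -0.48 points when weighted by coverage, against -0.40. The cause of the moves was not tested beyond the changed threshold.

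Chosen after seeing the data, the mean of 5 nt on either side of each border lowered the spacer share at every border named in the report with coverage in both libraries; at the end of 18S it was 61.1% (NKRF) and 62.9% (tag alone), at the start of 5.8S 40.2% and 39.1%, and at the end of 5.8S 7.44% and 5.15%. The window comparison for PAR coverage was also chosen then. Tag-only depth limits the spacers, where 108 nucleotides could be matched.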
